A study of Mus musculus with 6 samples.

Results

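The genes described here encode the machinery that brings new proteins into the endoplasmic reticulum (ER) and moves them to and from the Golgi apparatus. They were taken by symbol from the gene table and number 40 of 29431 genes. They comprise 7 genes of the signal recognition particle (SRP) and its receptor, 5 of the Sec61 translocon and its partners, 4 of the translocon-associated protein complex (TRAP), 5 of signal peptidase, 11 of the COPII coat with its GTPase and scaffold, and 8 of the COPI coat. RNA was measured in 6 libraries of mouse embryos at the 4-cell stage, all wild type by their labels. In 3 libraries the embryos had been treated with AXKO-0046, which the labels describe as inhibiting lactate dehydrogenase B (LDHB), and 3 libraries were untreated controls. No source used here gives the dose or the time of exposure. The series description speaks of 6 embryos for each group, without saying whether 1 library or all 3 together used them. No label says that the replicates came from different litters or cultures, so the p-values below rest on differences among libraries that may be technical repeats.

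The SRP binds the signal sequence of a protein as it leaves the ribosome and docks, through its receptor, at the Sec61 channel in the ER membrane. TRAP assists the channel, and signal peptidase cuts the signal sequence off. COPII vesicles, whose assembly is started by the GTPase SAR1, carry cargo out of the ER, and COPI vesicles return escaped proteins from the Golgi and move cargo within it. Early embryos use this route for membrane and surface proteins, among them the adhesion molecules needed for compaction.

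Markers of the oocyte and embryo were present. Dppa3, a maternal factor, lay between 10514 and 18144 FPKM, a level scaled to transcript length and to the fragments sequenced, under the inhibitor and between 13054 and 14496 FPKM in controls. Of 11 oocyte and embryo markers 7 were at 1 FPKM or more in all libraries, and Sox2 was listed at 0 in all but 1. Among these 7 the oocyte transcripts Npm2 and Oosp1 lay lower in all inhibitor libraries than in any control, as did 6.26% of all genes tested. The others of the 7 overlapped between the groups, among them the oocyte transcripts Zp3 and Padi6. Padi6 was at 12.8, 10.5 and 10.4 FPKM under the inhibitor and at 12.4, 10.8 and 11.1 FPKM in controls. Npm2 was at 23.1, 21.6 and 17.3 FPKM under the inhibitor and at 33.4, 30.9 and 35.7 FPKM in controls (log2 difference -0.67, limma adjusted p = 0.426). Oosp1 was at 8.51, 3.69 and 3.92 FPKM under the inhibitor and at 17.4, 15.2 and 13.1 FPKM in controls (log2 difference -1.42, limma adjusted p = 0.378). The part of this difference in the results below was not tested. The 5 cumulus and granulosa cell markers that were listed, of 10 sought, summed to at most 0.417 FPKM under the inhibitor and 1.17 FPKM in controls. Of the blood cell markers Hba-a1, an alpha globin gene, lay between 69.8 and 136 FPKM under the inhibitor and between 100.01 and 146 FPKM in controls, while Hbb-bs, a beta globin gene, was at 0.136 FPKM in 1 library and at 0 in the rest. Cd52, the other blood cell marker listed, was at 0.751, 1.44 and 1.36 FPKM under the inhibitor and at 2.45, 1.23 and 0.795 FPKM in controls. Col1a1, the fibroblast marker listed, reached at most 0.0229 FPKM. Genes of mitochondrial DNA took 10.6% to 11.98% of FPKM in the inhibitor libraries and 15.1% to 18.9% in the controls. Across all genes tested, inhibitor replicate 2 stood apart, with a median Pearson correlation of 0.888 with the other libraries, against 0.946 to 0.965 for the rest. Since each library pools embryos, fewer cells of a kind and less RNA per cell cannot be told apart in any value below.

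The 40 genes spanned a wide range of levels that hardly differed in order between the groups. Srp14 was the most abundant, at 591 FPKM ± 70.4 under the inhibitor and 647 FPKM ± 11.6 in controls (SD, n = 3 each), followed in both groups by Ssr2, Sar1b, Spcs1, Sar1a and Sec11a. At the low end Copg2 averaged 0.282 FPKM under the inhibitor and 0.127 FPKM in controls, and Sec24d 0.290 FPKM under the inhibitor and 0.125 FPKM in controls. The rank correlation between the inhibitor and the control means over the 40 genes was 0.992 (Spearman). Levels tended to be higher for genes with short transcripts. The 13 genes whose longest coding transcript is under 2000 bases had a median level of 69.2 FPKM under the inhibitor and 62.9 FPKM in controls, against 4.41 and 4.31 FPKM for the 27 longer ones, but the ranges overlapped, with Sec11c among the short at 4.04 FPKM and Sar1a among the long at 101 FPKM in controls. Over the 40 genes the Spearman correlation of level with length was -0.76 under the inhibitor and -0.73 in controls, although FPKM is already divided by length. No such correlation over all genes was set beside these values. The length is that of the longest annotated coding transcript, which need not be the one expressed. With the difference between the groups, length had a correlation of -0.12 over the 36 genes tested. These are descriptions across genes that share their libraries.

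**Figure D1:**
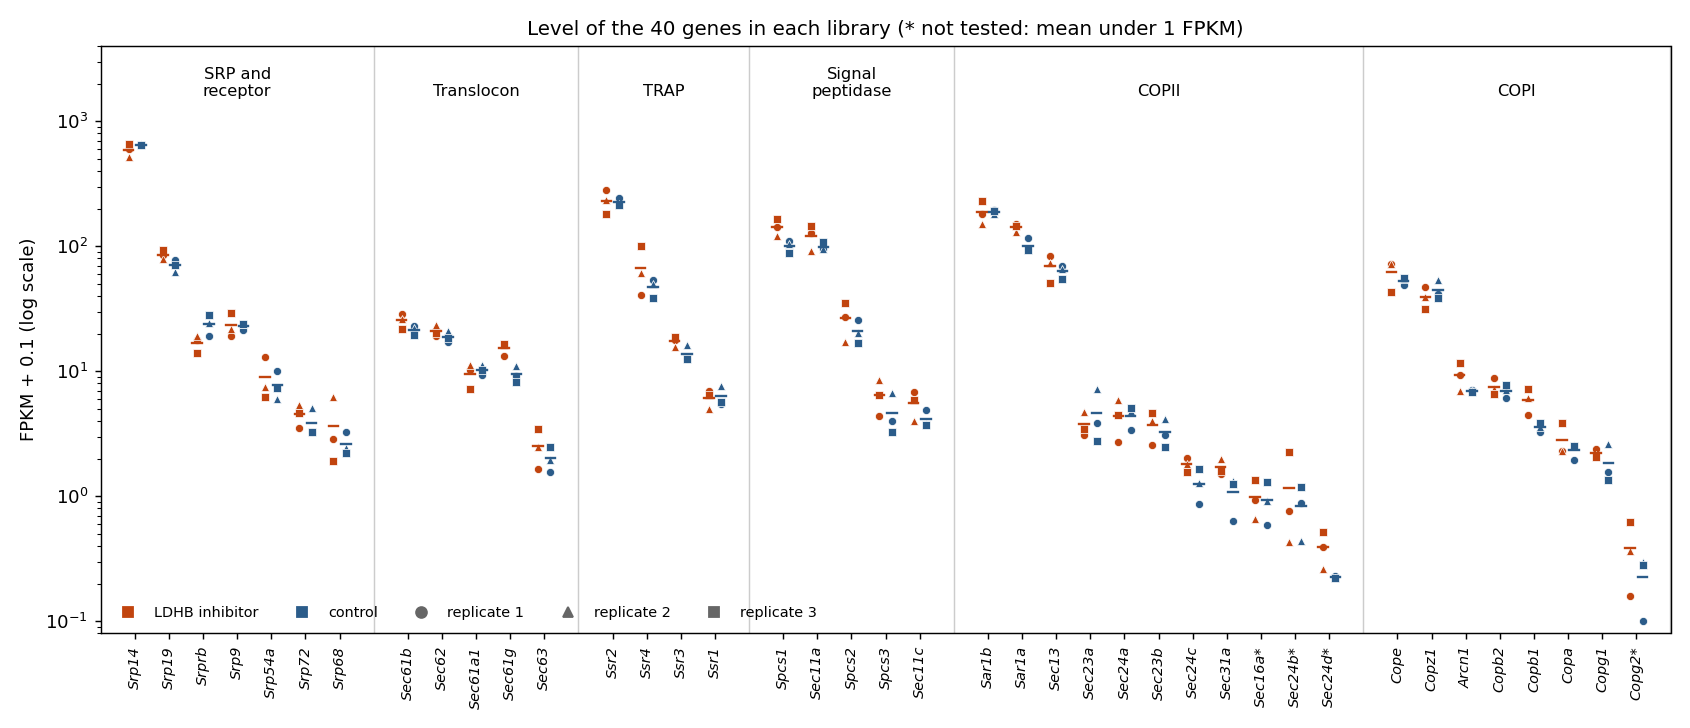
Level of each of the 40 genes in the 6 libraries, as FPKM + 0.1 on a log axis, with inhibitor libraries left of controls, symbols for the replicates and lines for the group means. Srp14 stands highest, at means of 591 and 647 FPKM, and Copg2 and Sec24d lowest, under 1 FPKM, in both groups.

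None of the genes passed the test between the groups, and most of them lay slightly higher under the inhibitor. Of the 40 genes 36 had a mean of at least 1 FPKM and were tested with limma on log2(FPKM + 1), and Copg2, Sec24b, Sec24d and Sec16a were not. At an adjusted p under 0.05 the test called 0 of the 36, and 0% of all 9691 genes tested in either direction. The lowest adjusted p among the 36 was 0.484, for Sec61g. The difference on the log2 scale was above 0 for 28 of the 36 (77.8%), against 57.1% of all genes tested, with a median of 0.20 against 0.062. At an unadjusted p under 0.05, 4 were higher (11.1%), where 4.72% of all genes were, namely Sec61g, Sar1a, Spcs1 and Copb1. In the other direction 0 of the 36 passed that mark, where 3.8% of all genes did. For 6 of the 36 genes (16.7%) the lowest inhibitor library was still higher than the highest control, as it was for 9.13% of all genes, and for 1 the reverse held, as for 6.26%. The 6 were Sec61g, Sar1a, Spcs1, Copb1, Srp19 and Sec31a, and the 1 was Srprb. The 4 became 1 without control replicate 2 and 0 without control replicate 3. Without inhibitor replicate 2, which stood apart, 4 were again higher at that mark, 29 of the 36 differences were above 0, and the median was 0.21. With library totals taken without genes of mitochondrial DNA the median was again 0.21 and 28 were above 0. Rescaling by median ratios left 26 above 0 and quantile normalization 24, where the medians of all genes were 0.0089 and -0.026. The authors' deposited table gives a p under 0.05 for 3 of the 40 (7.5%, against 7.52% of all genes listed), namely Sec61g (0.00661), Srprb (0.0105) and Copb1 (0.0130). Their lowest q in the authors' deposited table was 0.239, and 0 of the 40 were marked as changed there, against 0.792% of all genes.

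**Figure D2:**
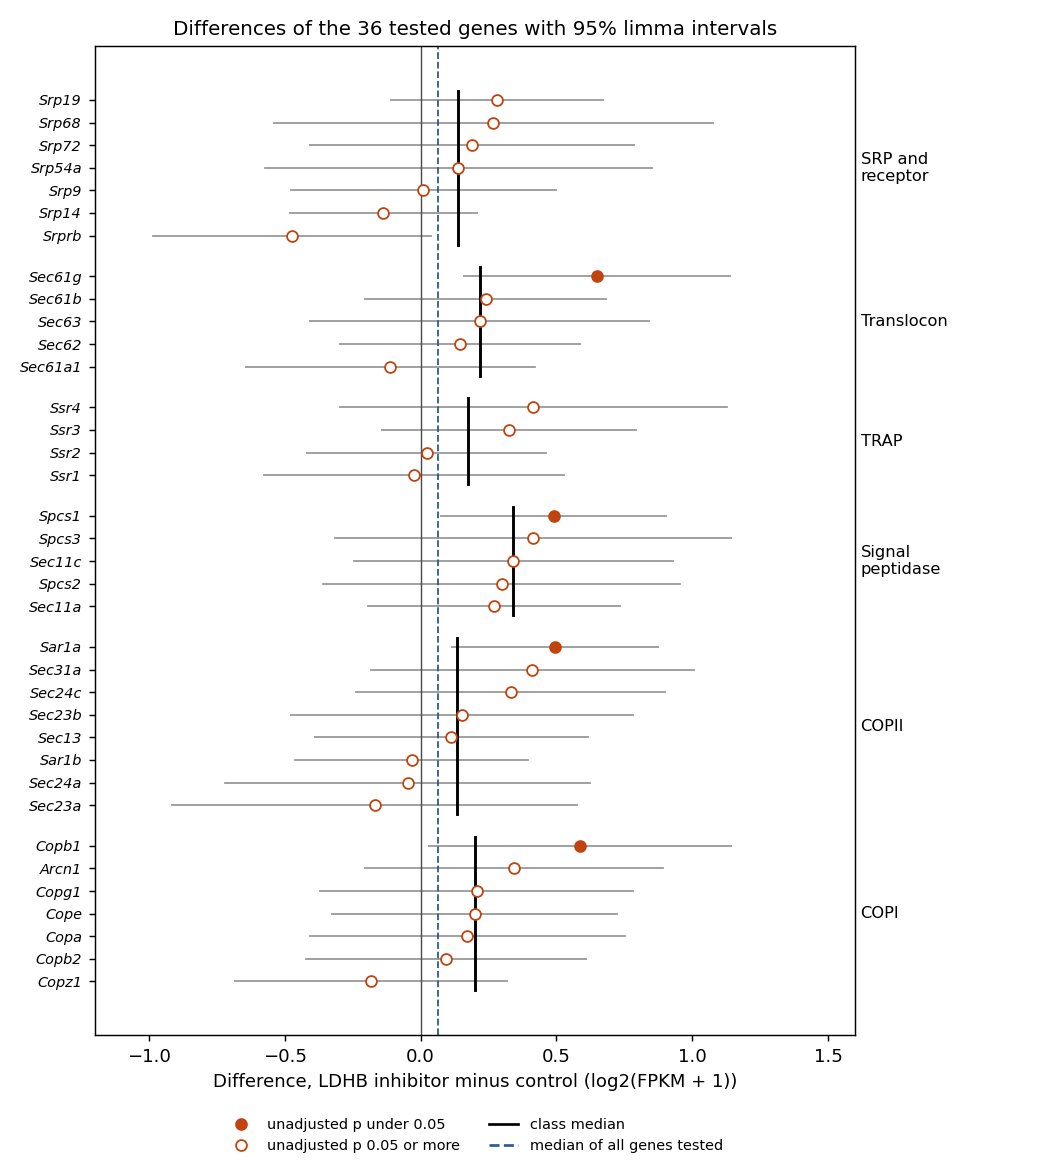
Difference of each tested gene, LDHB inhibitor minus control, on the log2(FPKM + 1) scale, with 95% limma intervals, class medians (black) and the median of all genes tested (dashed). The class medians lie between 0.13 and 0.34, to the right of the dashed line at 0.062, and 4 intervals, those of Sec61g, Spcs1, Sar1a and Copb1, do not reach 0.

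The sequence before the RefSeq gene start is shown for these 4 genes and for Srprb, the one with the lowest difference. The stretches are the 250 bases before the RefSeq start on GRCm38.p6, read 5′ to 3′ on the gene's strand, and capitals mark the letters ACGTG on either strand, the core that binding sites of the unfolded protein response factors XBP1 and ATF6 share. They lie at chr11:16508485-16508734, minus strand for Sec61g, at chr10:61680035-61680284, plus strand for Sar1a, at chr14:31001667-31001916, minus strand for Spcs1, at chr7:114254681-114254930, minus strand for Copb1 and at chr9:103202066-103202315, minus strand for Srprb. The GENCODE M21 annotation starts Copb1 at 114254711, Spcs1 at 31001672 and Srprb at 103202137, within these stretches. By those starts the capitals of Copb1 and Srprb lie inside the gene.
Sec61g: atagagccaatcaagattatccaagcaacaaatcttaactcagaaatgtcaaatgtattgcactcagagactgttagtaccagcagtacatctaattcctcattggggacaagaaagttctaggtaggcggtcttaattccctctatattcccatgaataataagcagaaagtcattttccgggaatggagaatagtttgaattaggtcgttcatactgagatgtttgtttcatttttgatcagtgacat
Sar1a: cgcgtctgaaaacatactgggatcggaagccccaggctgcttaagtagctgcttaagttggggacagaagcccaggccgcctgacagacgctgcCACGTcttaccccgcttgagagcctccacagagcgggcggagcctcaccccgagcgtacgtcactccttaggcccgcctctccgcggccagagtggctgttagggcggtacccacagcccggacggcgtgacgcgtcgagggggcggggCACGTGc
Spcs1: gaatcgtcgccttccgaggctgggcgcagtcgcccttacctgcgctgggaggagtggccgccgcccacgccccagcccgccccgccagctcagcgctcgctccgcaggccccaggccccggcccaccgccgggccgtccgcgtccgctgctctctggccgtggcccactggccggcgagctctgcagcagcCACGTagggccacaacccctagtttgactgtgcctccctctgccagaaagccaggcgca
Copb1: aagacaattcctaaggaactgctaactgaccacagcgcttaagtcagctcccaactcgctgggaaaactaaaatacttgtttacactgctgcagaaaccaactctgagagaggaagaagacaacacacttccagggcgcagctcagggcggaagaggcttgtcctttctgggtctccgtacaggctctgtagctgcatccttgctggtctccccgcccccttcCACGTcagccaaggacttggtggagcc
Srprb: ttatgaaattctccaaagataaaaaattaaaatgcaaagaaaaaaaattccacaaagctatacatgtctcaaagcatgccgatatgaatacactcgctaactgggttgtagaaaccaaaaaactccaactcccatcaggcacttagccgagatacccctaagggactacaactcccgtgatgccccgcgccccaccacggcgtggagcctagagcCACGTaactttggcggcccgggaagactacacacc

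Of the 40 genes 33 had promoters in the RefSeq table, with 35 windows in all, each from 250 bases before to 50 after the start. The letters ACGTG, on either strand, were found in 23 of the 35 windows (65.7%), against 19.6% of 32851 windows of all genes and 27.1% of 7703 windows of the genes tested. They were present in 9 of 11 COPII genes, 5 of 7 COPI genes, 3 of 5 SRP genes, 2 of 4 translocon genes, 2 of 3 TRAP genes and 1 of 3 signal peptidase genes that have a window. Sar1a, Spcs1 and Copb1 had the letters, but Sec61g, with the largest difference, did not. Of the genes with differences below 0, Copz1, Sec23a, Sec24a, Ssr1, Srp14 and Srprb had them and Sar1b did not. Whether the letters go with the differences was not tested. The longer form TGACGTGG, which contains ACGTG and is known as an unfolded protein response element, occurred in 4 windows (11.4%), against 0.676% of all windows and 0.935% of those of genes tested. The 4 are coat genes, Copb1 and Copb2 of COPI and Sec23a and Sec24d of COPII. They are shown as 30 bases each with the element in capitals, at chr7:114254690-114254719, minus strand for Copb1, at chr9:98563713-98563742, plus strand for Copb2, at chr12:59011993-59012022, minus strand for Sec23a and at chr3:123267459-123267488, plus strand for Sec24d.
Copb1: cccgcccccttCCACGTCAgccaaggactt
Copb2: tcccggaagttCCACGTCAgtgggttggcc
Sec23a: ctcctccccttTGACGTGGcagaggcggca
Sec24d: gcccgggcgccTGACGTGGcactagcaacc
In Copb1 and Copb2 the element is on the opposite strand. By the starts in GENCODE M21 the element lies inside the gene in Copb1, Copb2, Sec23a and Sec24d. The longer ER stress elements ERSE and ERSE-II, which are built around CCAAT and CCACG, were in 0 of the 35 windows, and in 0.119% and 0.0365% of all windows. The letters CCGGAAG, the core of ETS family sites, were in 12 windows (34.3%, against 8.86% of all and 21.3% of those of genes tested), CCAAT in 12 (34.3% against 37.4% and 40.1%), the E-box CACGTG, which contains ACGTG, in 3 (8.57% against 7.15% and 10.9%) and TATAAA in 1 (2.86% against 13.6% and 7.45%). Both strands were searched throughout. A match is a run of letters and not a measured binding site, and no match says only that these letters are not in the window. The differences of the genes with TGACGTGG were 0.59 for Copb1, 0.093 for Copb2 and -0.17 for Sec23a, and Sec24d was too low to be tested.

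Of the SRP and receptor genes 5 of 7 had differences above 0, with a median of 0.14, which was 0.048 without inhibitor replicate 2 and 0.034 without control replicate 2. Srprb, the membrane-anchored beta subunit of the SRP receptor (chromosome 9, 103188032 to 103202137, minus strand), was measured at 17.8, 18.8 and 13.8 FPKM under the inhibitor and at 19.1, 24.03 and 28.2 FPKM in controls. All 3 inhibitor libraries lay below the controls, the nearest pair being 18.8 and 19.1 FPKM. The difference was -0.47 (SE 0.22, limma adjusted p = 0.609). Its partner Srpr, which is not among the 40, the alpha subunit that binds the particle, averaged 49.9 FPKM ± 9.95 under the inhibitor and 41.4 FPKM ± 7.37 in controls (SD, n = 3 each), with a difference of 0.26 (SE 0.22, limma adjusted p = 0.736). Srp19, which helps assemble the particle, was at 84.3, 78.2 and 93.2 FPKM under the inhibitor and at 77.6, 61.5 and 71.0 FPKM in controls, so that its groups did not overlap either, in the other direction (difference 0.28, SE 0.17). Srp14, which with Srp9 pauses translation, was at 603, 516 and 655 FPKM under the inhibitor and at 642, 661 and 639 FPKM in controls. Its groups overlapped, with a 95% interval of the difference from -0.48 to 0.21. Srp9, its partner in the particle, had a much lower level, 23.4 FPKM ± 5.34 under the inhibitor and 22.9 FPKM ± 1.52 in controls. Srp68 and Srp72, which bind the RNA of the particle as a pair, averaged 3.57 FPKM and 4.41 FPKM under the inhibitor and 2.54 FPKM and 3.76 FPKM in controls. Srp54a, the signal-binding subunit, averaged 8.81 FPKM ± 3.64 under the inhibitor and 7.69 FPKM ± 2.02 in controls. Its value is uncertain, since Srp54b and Srp54c are at least 99.5% identical to it over 80.9% of its transcript. The sum of the 3 Srp54 genes was 45.4, 44.1 and 33.7 FPKM under the inhibitor and 35.0, 35.6 and 31.8 FPKM in controls, and the groups overlapped.

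In the translocon 4 of 5 differences were above 0, with a median of 0.22, or 0.11 without control replicate 1. Sec61g, the small gamma subunit of the channel (chromosome 11, 16500530 to 16508484, minus strand), had the largest difference of the 36 genes. It was at 13.1, 16.0 and 16.5 FPKM under the inhibitor and at 9.08, 10.8 and 8.08 FPKM in controls. The groups were apart, and the difference was 0.65 (SE 0.22, limma adjusted p = 0.484, 95% interval 0.16 to 1.14). Sec61b, the beta subunit, was at 28.8, 26.1 and 21.7 FPKM under the inhibitor and at 22.7, 21.9 and 19.5 FPKM in controls, and inhibitor replicate 3 lay within the controls (difference 0.24, SE 0.19). Its value is uncertain, because the predicted gene Gm10320 is 98.3% identical to it over 84.0% of its transcript. Gm10320 itself was at 11.8, 9.99 and 10.03 FPKM under the inhibitor and at 2.11, 4.90 and 5.33 FPKM in controls (difference 1.25, SE 0.31, limma adjusted p = 0.386). Sec61b and Gm10320 together gave 40.6, 36.1 and 31.7 FPKM under the inhibitor and 24.8, 26.8 and 24.8 FPKM in controls, and on this sum the groups did not overlap. No source used here says how reads were divided between the pair. A second copy, Gm5870, 95.7% identical over 50% of the transcript, averaged 0.540 FPKM under the inhibitor and 0.261 FPKM in controls. Sec61a1, the pore-forming alpha subunit, averaged 9.42 FPKM ± 2.03 under the inhibitor and 10.1 FPKM ± 0.967 in controls (SD, n = 3 each), a difference of -0.11 with a 95% interval from -0.64 to 0.42. Sec63, which recruits the chaperone BiP to the channel, was at 1.56, 2.39 and 3.33 FPKM under the inhibitor and at 1.47, 1.85 and 2.38 FPKM in controls, with overlapping groups. Sec62, its partner, averaged 20.8 FPKM ± 2.35 under the inhibitor and 18.7 FPKM ± 1.93 in controls.

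The 4 TRAP subunits differed widely in level, and 3 of 4 differences were above 0, with a median of 0.17, which was 0.099 without inhibitor replicate 1 and 0.28 without control replicate 2. Ssr2, the beta subunit, was at 282, 233 and 180 FPKM under the inhibitor and at 242, 219 and 214 FPKM in controls. Ssr1, the alpha subunit, averaged 6.04 FPKM ± 1.04 under the inhibitor and 6.18 FPKM ± 1.22 in controls. For both the difference was near 0, with intervals from -0.42 to 0.46 for Ssr2 and from -0.58 to 0.53 for Ssr1. Ssr3, the gamma subunit, was at 17.6, 15.6 and 18.5 FPKM under the inhibitor and at 12.5, 16.1 and 12.3 FPKM in controls, with 1 control library among the inhibitor values (difference 0.33, SE 0.21). Ssr4, the delta subunit, was at 40.8, 60.4 and 100.3 FPKM under the inhibitor and at 53.5, 49.9 and 38.6 FPKM in controls. Its high mean under the inhibitor, 67.2 FPKM ± 30.3 against 47.3 FPKM ± 7.76 in controls, rested on replicate 3, and replicate 1 lay within the controls.

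Signal peptidase was the class with the highest median, 0.34, and all 5 of its tested genes had differences above 0. Spcs1, a small non-catalytic subunit (chromosome 14, 30999826 to 31001672, minus strand), was at 143, 120 and 165 FPKM under the inhibitor and at 110, 104 and 88.2 FPKM in controls. The groups were apart, with a difference of 0.49 (SE 0.18, limma adjusted p = 0.514, 95% interval 0.075 to 0.91). It shares 223 bases of an exon with Glt8d1 on the opposite strand, which averaged 3.93 FPKM under the inhibitor and 4.05 FPKM in controls. Sec11a and Sec11c, the alternative catalytic subunits, both overlapped between the groups. Sec11a was at 128, 91.3 and 145 FPKM under the inhibitor and at 94.3, 94.2 and 108 FPKM in controls, and Sec11c at 6.67, 3.91 and 5.78 FPKM under the inhibitor and at 4.80, 3.67 and 3.63 FPKM in controls. In both, inhibitor replicate 2 was the lowest of its group and lay among or below the controls. Spcs2 and Spcs3, the other accessory subunits, averaged 26.4 FPKM ± 9.06 and 6.35 FPKM ± 2.09 under the inhibitor and 20.7 FPKM ± 4.51 and 4.55 FPKM ± 1.81 in controls. The class median was 0.53 without inhibitor replicate 2, which was the lowest inhibitor library for 4 of the 5 genes. It was 0.26 without inhibitor replicate 1, 0.29 under median-ratio scaling and 0.26 under quantile normalization.

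In the COPII coat the GTPase genes had the highest levels, followed by Sec13, and 5 of 8 tested differences were above 0, with a median of 0.13. The median was 0.23 without inhibitor replicate 1, 0.23 without control replicate 2 and 0.030 without control replicate 3. Sar1a (chromosome 10, 61680299 to 61693297, plus strand) was at 149, 131 and 145 FPKM under the inhibitor and at 116, 93.04 and 92.9 FPKM in controls. The groups were apart, and the difference was 0.50 (SE 0.17, limma adjusted p = 0.488, 95% interval 0.12 to 0.87). Its paralogue Sar1b, which in humans is mutated in chylomicron retention disease, was at 182, 149 and 230 FPKM under the inhibitor and at 195, 180 and 191 FPKM in controls. The controls lay within the range of the inhibitor libraries, and the interval of the difference ran from -0.46 to 0.40. Sar1b starts 52 bases from the start of Sec24a on chromosome 11 in GENCODE M21, on the other strand, so that both COPII genes face away from each other. RefSeq places the start of Sec24a elsewhere. Sec24a, a cargo-binding subunit, was at 2.62, 5.78 and 4.35 FPKM under the inhibitor and at 3.27, 4.71 and 4.94 FPKM in controls (difference -0.046, interval -0.72 to 0.63).

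Sec31a, which with Sec13 forms the outer cage, was at 1.42, 1.89 and 1.48 FPKM under the inhibitor and at 0.539, 1.22 and 1.16 FPKM in controls. Its groups did not overlap (difference 0.41, SE 0.26, limma adjusted p = 0.675). Sec13, which is also part of the nuclear pore, averaged 69.2 FPKM ± 16.7 under the inhibitor and 62.9 FPKM ± 7.48 in controls, far above its cage partner. Sec24c, another cargo-binding subunit, was at 1.93, 1.70 and 1.46 FPKM under the inhibitor and at 0.762, 1.17 and 1.54 FPKM in controls, with 1 inhibitor library below the highest control. Among the low genes Sec24d was at 0.291, 0.159 and 0.421 FPKM under the inhibitor and at 0.131, 0.123 and 0.121 FPKM in controls, so the groups were apart, at levels under the filter. Sec24b was at 0.667, 0.332 and 2.17 FPKM under the inhibitor and at 0.787, 0.338 and 1.07 FPKM in controls. Sec16a, the scaffold of ER exit sites, averaged 0.880 FPKM ± 0.349 under the inhibitor and 0.834 FPKM ± 0.361 in controls. Sec23a and Sec23b, which activate the GTPase as inner coat subunits, overlapped between the groups. Sec23a was at 2.9996, 4.66 and 3.37 FPKM under the inhibitor and at 3.74, 7.08 and 2.68 FPKM in controls, and Sec23b at 2.46, 3.91 and 4.497 FPKM under the inhibitor and at 2.96, 4.06 and 2.39 FPKM in controls.

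The COPI subunits join the membrane together, as 1 complex. Their levels were uneven, with Cope at 62.4 FPKM under the inhibitor and 52.9 FPKM in controls and Copz1 at 39.1 FPKM under the inhibitor and 44.4 FPKM in controls, while the other tested genes averaged 9.18 FPKM or less. Of the 7 tested genes 6 had differences above 0, with a median of 0.20. Copb1, the beta subunit (chromosome 7, 114215559 to 114254711, minus strand), was at 4.38, 5.96 and 7.14 FPKM under the inhibitor and at 3.17, 3.50 and 3.78 FPKM in controls. The groups were apart, and the difference was 0.59 (SE 0.24, limma adjusted p = 0.572, 95% interval 0.031 to 1.14). Arcn1, the delta subunit, was at 9.23, 6.86 and 11.5 FPKM under the inhibitor and at 6.96, 7.02 and 6.69 FPKM in controls, with inhibitor replicate 2 among the controls (difference 0.34, SE 0.24). Cope, the epsilon subunit, was at 71.7, 72.4 and 43.1 FPKM under the inhibitor and at 48.6, 54.4 and 55.6 FPKM in controls, so that 2 inhibitor libraries lay above and 1 below all controls. Copa and Copb2, the alpha and beta prime subunits of the outer layer, averaged 2.71 FPKM ± 0.871 and 7.43 FPKM ± 1.18 under the inhibitor and 2.25 FPKM ± 0.342 and 6.88 FPKM ± 0.851 in controls. Copz1, the zeta subunit, was the tested member with a negative difference, -0.18 (interval -0.69 to 0.32). Copg1, a gamma subunit, was at 2.29, 2.05 and 1.97 FPKM under the inhibitor and at 1.46, 2.51 and 1.24 FPKM in controls. Its paralogue Copg2 was at 0.0600, 0.266 and 0.521 FPKM under the inhibitor and at 0, 0.198 and 0.183 FPKM in controls, and it shares exon bases with Mest on the opposite strand.

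The share of a paralogue in the summed FPKM of its family was compared between the groups. Level went with length across the 40 genes even in FPKM, and whether this bears on the order of paralogues of unequal length was not tested. Sar1a took 45.0%, 46.7% and 38.7% of the Sar1 total under the inhibitor and 37.3%, 34.1% and 32.7% in controls. All inhibitor libraries were above all controls, by 8.76 percentage points on average (p = 0.1 in an exact permutation test, two-sided, which cannot go lower with 3 libraries a group, and 0.25 adjusted over the 5 shares compared). Sar1b had the higher FPKM in all 6 libraries, with a transcript of 1201 bases against 2613 bases for Sar1a. Sec24a and Sec24b, one of the 2 subfamilies of the cargo-binding subunit, took 59.7%, 76.7% and 77.7% of the 4 Sec24 genes under the inhibitor and 82.0%, 79.6% and 78.3% in controls (exact permutation p = 0.1, adjusted 0.25). These groups were also apart, at 77.7% and 78.3% where they were nearest, and the mean difference of -8.60 points became -2.76 without inhibitor replicate 1. The other 3 shares overlapped. Copg1 made up 88.4% ± 9.17 of the Copg total under the inhibitor and 93.3% ± 6.45 in controls, Sec23a 50.7% ± 6.82 of the Sec23 total under the inhibitor and 57.4% ± 5.52 in controls, and Sec11a 95.7% ± 0.577 of the Sec11 total under the inhibitor and 96.1% ± 0.815 in controls (SD, n = 3 each, exact permutation adjusted p = 0.5 for each).

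**Figure D3:**
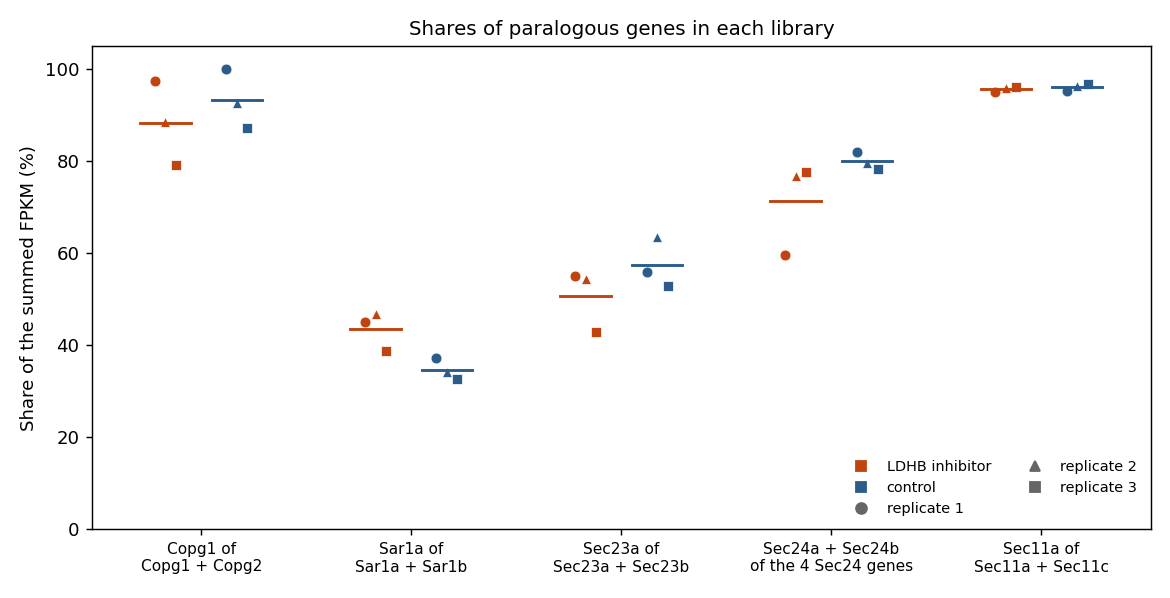
Share of the summed FPKM of paralogous genes that the named gene or genes took in each library, in percent, inhibitor libraries left of controls, with lines for the group means. The Sar1a share lies between 38.7% and 46.7% under the inhibitor and between 32.7% and 37.3% in controls, and the other pairs overlap or nearly touch.

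In each inhibitor library the median of the genes lay above that of all genes tested, least so in replicate 2. Relative to each gene's mean over the 6 libraries, the median of the 36 genes was 0.13, 0.10 and 0.14 on the log2 scale in inhibitor replicates 1, 2 and 3 and -0.12, -0.039 and -0.12 in control replicates 1, 2 and 3. The medians of all genes tested were 0.013, 0.062 and -0.0079 in the inhibitor libraries and -0.054, -0.011 and -0.031 in the controls. Above their own mean lay 21, 23 and 25 of the 36 genes in inhibitor replicates 1, 2 and 3, against 51.5%, 56.2% and 49.1% of all genes tested. In control replicates 1, 2 and 3 it was 9, 16 and 9 of the 36, against 43.0%, 48.3% and 45.6%. Inhibitor replicate 3 was the highest of the 6 libraries for 14 of the 36 genes and also the lowest for 7. Control replicate 3 was the lowest for 13, and control replicate 1 the highest for 0. The libraries differed in which class was high. For signal peptidase the median was 0.41 in inhibitor replicate 3, 0.24 in replicate 1 and -0.20 in replicate 2. For COPII it was 0.18 in inhibitor replicate 2, 0.098 in replicate 3 and 0.038 in replicate 1. In inhibitor replicates 1, 2 and 3 it was -0.036, -0.067 and 0.085 for SRP and 0.19, -0.00028 and 0.043 for COPI. The medians of the translocon and TRAP were above 0 in each inhibitor library.

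**Figure D4:**
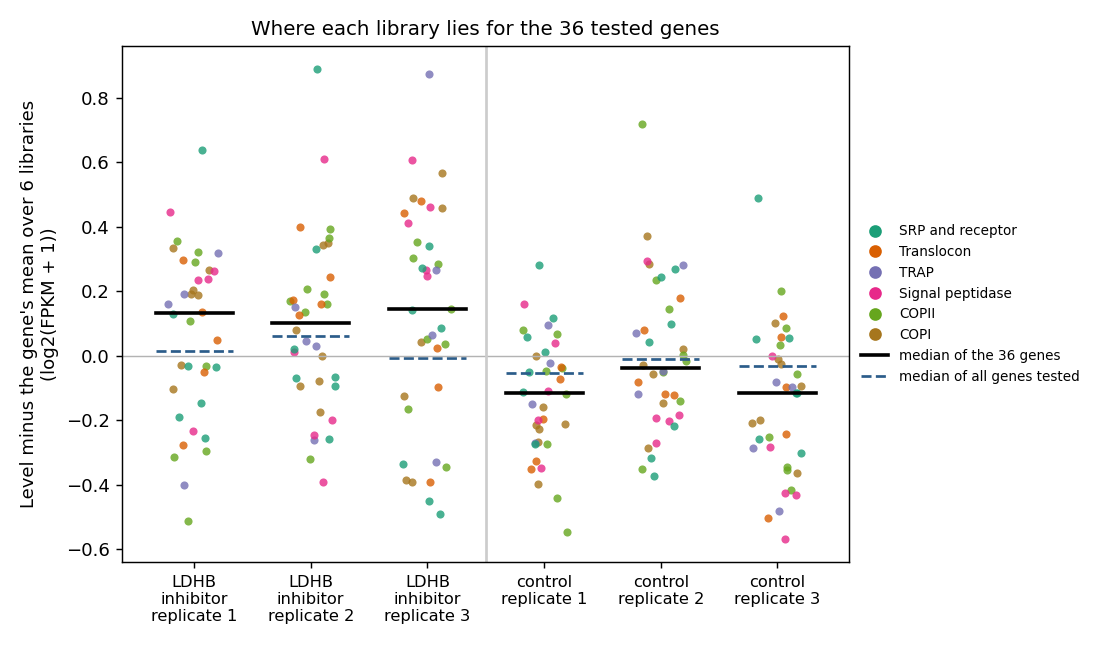
Level of the 36 tested genes in each library minus the gene's mean over the 6 libraries, on the log2(FPKM + 1) scale, coloured by class, with the median of the 36 genes (black) and of all genes tested (dashed). The black lines lie between 0.10 and 0.14 in the inhibitor libraries and between -0.12 and -0.039 in the controls, each farther from 0 than the dashed line of its library.

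Genes that act beside this machinery had list medians above 0, and above the median of all genes in most but not all lists. The lists were chosen with earlier results of these data known. Of 99 genes in 8 related lists 96 were in the table and 85 were tested. Of these 62 had differences above 0 (72.9%, median 0.19), 11 were higher at an unadjusted p under 0.05 (12.9%) and 0 lower, and none passed at an adjusted p under 0.05. Here too 57.1% of all genes tested had differences above 0, and 4.72% were higher at that p. List medians lay between 0.062, for cargo and retrieval receptors between ER and Golgi, which is also the median of all genes, and 0.42, for the insertion of tail-anchored proteins. The value of 0.42 rests on 4 tested genes and was 0.12 without inhibitor replicate 2. In the oligosaccharyltransferase, which attaches sugars at the translocon, 8 of 12 were above 0, with Tmem258 at 31.2 FPKM ± 1.78 under the inhibitor and 21.4 FPKM ± 3.42 in controls and Dad1 at 90.6 FPKM ± 16.4 under the inhibitor and 63.9 FPKM ± 6.41 in controls (SD, n = 3 each). In the ER membrane complex, an insertase for membrane proteins, 9 of 10 were above 0, with Emc6 at 93.9 FPKM ± 16.9 under the inhibitor and 56.9 FPKM ± 8.64 in controls and Emc8 at 25.9 FPKM ± 5.64 under the inhibitor and 15.9 FPKM ± 1.71 in controls. Among tethers and SNAREs 14 of 17 were above 0, though their median of 0.079 was near the 0.062 of all genes. Trappc1, of a tethering complex, was at 44.1 FPKM ± 8.66 under the inhibitor and 21.5 FPKM ± 6.30 in controls, the largest difference in the 8 lists (1.02, limma adjusted p = 0.409). Rab1a, the GTPase of this step, was at 29.9 FPKM ± 3.96 under the inhibitor and 18.1 FPKM ± 0.740 in controls.

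Among cargo and retrieval receptors 8 of 13 were above 0, with Surf4 at 28.8 FPKM ± 2.85 under the inhibitor and 21.3 FPKM ± 1.31 in controls and Lman2 at 35.1 FPKM ± 0.833 under the inhibitor and 26.9 FPKM ± 2.16 in controls (SD, n = 3 each). Of the Arf GTPases and their regulators, only some of which act in recruiting COPI, 7 of 9 were above 0. Arf5 was at 4.24 FPKM ± 1.297 under the inhibitor and 1.96 FPKM ± 0.436 in controls. Arfgef1, an exchange factor of the trans-Golgi, was at 0.793 FPKM ± 0.0699 under the inhibitor and 1.47 FPKM ± 0.546 in controls. Among COPII regulators and translocation accessory factors 8 of 10 were above 0. These 8 include Srpr and the near-identical copies of Srp54a, Srp54b (0.30) and Srp54c (0.21), which are not independent of the 40 genes. Tram1, a membrane protein beside the channel, was at 3.96 FPKM ± 0.716 under the inhibitor and 2.03 FPKM ± 0.911 in controls, and Mia3, which helps load large cargo into COPII vesicles, at 1.76 FPKM ± 0.362 under the inhibitor and 1.10 FPKM ± 0.279 in controls. For the insertion of tail-anchored proteins 3 of 4 were above 0, with Ubl4a at 18.02 FPKM ± 4.00 under the inhibitor and 13.2 FPKM ± 2.59 in controls, and Sgta at 71.4 FPKM ± 37.7 under the inhibitor and 43.1 FPKM ± 9.05 in controls. The clathrin coat and its adaptors, which act after the Golgi, had 5 of 10 above 0 and a median of 0.12, which was -0.024 without inhibitor replicate 2, Ap2a2 being at 3.02 FPKM ± 0.388 under the inhibitor and 1.28 FPKM ± 0.467 in controls, and Cltb at 1.997 FPKM ± 0.820 under the inhibitor and 3.63 FPKM ± 0.962 in controls.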

How the data were processed

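RNA of 3 inhibitor and 3 control libraries was measured. Per the labels' protocols, reverse transcription was primed by oligo(dT), and the PCR-amplified cDNA was cut into fragments for paired-end reads. The submitters' processing notes list the build GRCm38 and the tools edgeR, DESeq2, StringTie 2.1.6, HISAT2 2.2.1 and cutadapt 1.9. No source used here gives their roles, the annotation, or the handling of strand and of reads shared by near-identical copies, so antisense and overlapping genes cannot be told apart. Per the file headers, the deposited values are FPKM for each gene in each library, with 1 fold (a ratio of group means), its log2, a p-value and a q-value for each gene. The depth is unknown and could not be read from the FPKM of low genes. For genes with a single listed transcript, with lengths from GENCODE M21, whole multiples of a trial unit were sought. At best 18.4% to 22.2% of values lay within 5% of a multiple, where an even spread gives 10% for a fixed unit. The best of many units was kept and the submitters' lengths are not known. This check therefore cannot say whether the values stand for whole reads.

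Groups came from the sample titles. The 9691 genes that averaged 1 FPKM or more were transformed to log2(FPKM + 1) and compared with limma 3.58.1 (R 4.3.3, trended and robust empirical Bayes). P-values were adjusted by Benjamini-Hochberg over all of them. The procedure was first tested on simulated data with changes larger than the difference of any member. That test cannot say whether differences as small as those of the members would be found. The log2 differences understate changes of low genes. Paralogue shares were compared by exact permutation. The members and lists were chosen with earlier results of these data known, and the promoter motifs after the differences had been seen. Every member is given. In each class the 3 with the smallest unadjusted p and the paralogues have the value of each library, and in each related list the 2 with the smallest p are named. Named outside this rule after their values were seen were Srpr, Gm10320, Gm5870, Srp54b, Srp54c, Glt8d1 and Mest, and of the markers Npm2, Oosp1, Padi6 and Zp3. Coordinates are from GENCODE M21 (GRCm38), where 29348 of 29431 identifiers were found, and promoters from RefSeq (GRCm38.p6). Near-identical copies (at least 95% identity over 50% of the longest coding transcript) were sought with BLAST 2.17.0. Copies that match a smaller part were not kept, so other members may have copies too. Alternatives changed the pseudocount, filter, scaling, weights, fit and libraries. The enrichment tables were not used.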

Additional observations from a re-analysis of the deposited data

How the results depend on the processing

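At an adjusted p under 0.05 the call of 0 of the genes held in all 15 alternatives of the fit, with a lowest adjusted p of 0.369. Of the 36 genes 13 kept a difference above 0 and 3 (Copz1, Srp14 and Srprb) one below 0 in all 15, 7 kept one above 0 in the 14 that tested them, and 13 changed sign in at least 1. With a pseudocount of 0.1 the median was 0.24. With a mean of at least 5 FPKM 18 of the 24 genes left were above 0 (75%, against 57.0% of all genes left). Under median-ratio scaling, which moved the median of all genes from 0.062 to 0.0089, the median of the 36 was 0.15, with 2 higher and 1 lower at an unadjusted p under 0.05. Under quantile normalization, where the median of all genes was -0.026, it was 0.12, again with 2 higher and 1 lower. Above 0 were 24 of 36 (66.7%), against 47.0% of all genes. There the class medians of COPII and SRP were both 0.032, and those of TRAP, COPI, the translocon and signal peptidase 0.089, 0.10, 0.13 and 0.26. Those of tethers and of cargo receptors were -0.023 and -0.024. Over all genes 457 were higher and 368 lower at that p. With median ratios these counts were 327 and 478, and with quantiles 268 and 543. Leaving out each library in turn gave medians of 0.16 to 0.23, 0 to 4 higher and 0 to 1 lower genes at that p, and 7 to 11 genes with all inhibitor libraries above and 1 to 2 with all below all controls. Over all genes these shares were then 13.5% to 19.6% above and 8.82% to 12.1% below, since fewer libraries are set against each other. Higher at that p were 3.02% to 7.72% of all genes. The cause of these shifts was not tested.

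The replicate number as a block left 28 above 0 and 4 higher at an unadjusted p under 0.05, with a lowest adjusted p of 0.536. Same-numbered libraries deviated together weakly (Pearson r of 0.14, 0.20 and 0.037 over 9691 genes). The numbers were not taken to pair the libraries, because the third r is under 0.1, although 5 of 6 libraries correlated best with their own number, a hint from the data and not from the design. The main limits are 3 libraries per group, an unknown depth, and uncertain levels for Sec61b and Srp54a, which have near-identical copies, and for 10 members that share exon bases with another listed gene.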
